A study of Mus musculus with 4 samples.

Results

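The 4 ERBB receptor genes (Erbb2, Erbb3, Egfr and Erbb4), the adaptor gene Grb7 and the feedback inhibitor genes Errfi1 and Lrig1 were followed in mammary tumours with and without AXL. The 7 genes were listed by name and found by their Ensembl identifiers, and all 7 were among the 14330 genes tested of 38293 in the count files. Tumour RNA from FVB mice with the MMTV-Neu transgene was sequenced as 4 libraries, 2 WT and 2 AXL KO, so both groups carried the Neu transgene. The labels give no age and do not say whether replicates came from separate animals, so a p-value reflects no more than the spread among these samples, and that spread may be technical. Which form of Neu the animals carry, and how Axl was inactivated, is not given in the sources used here.

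ERBB receptors are tyrosine kinases of the cell surface. Ligands of the EGF and neuregulin families bind EGFR, ERBB3 and ERBB4, whereas ERBB2 has no known ligand and signals as the partner of another receptor. ERBB3 has a weak kinase and acts mainly through ERBB2, with which it recruits PI3 kinase. Errfi1 (also called Mig6) encodes a cytosolic inhibitor that binds the active kinases, and Lrig1 encodes a membrane protein that promotes their degradation. In MMTV-Neu mice the mouse mammary tumour virus promoter drives the rat form of Erbb2 in mammary epithelium. Reads of the rat sequence that align to the mouse gene are counted under Erbb2. Counts per gene do not separate them from reads of the mouse gene, and in bulk tumours fewer cells of a type cannot be told apart from less RNA per cell.

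Axl itself, the targeted gene, was read with 1321 and 673 counts in the WT libraries, replicate 1 first, and with 89 and 163 in the AXL KO libraries. As CPM, the count scaled to a common library size, the WT mean was 48.5 ± 18.8 and the AXL KO mean 4.82 ± 0.0954 (SD, 2 libraries a group). The adjusted p for Axl was 0.9997 by edgeR and 2.24e-13 by DESeq2. Below, values of 4 libraries are given in the order WT replicate 1, WT replicate 2, AXL KO replicate 1, AXL KO replicate 2. The libraries held 18929743 to 33131739 counts in genes. WT replicate 2 stood apart, lying more than 2-fold from the mean of the other libraries at 11.1% of the tested genes, against 2.37% to 4.72% for the other 3 libraries. AXL KO replicate 2 has another prefix in its description than the other 3, so values without it are those within the shared prefix. The luminal markers Epcam, Krt8 and Krt18 stood at 966 to 1342.5, 529 to 928 and 632 to 1366 CPM. Cdh1, Cldn3, Spint1 and Cldn7 stood at 341 to 415, 383 to 523, 140 to 204 and 59.4 to 86.4 CPM. The remaining luminal markers, Krt19, Muc1 and Elf3, were low at 3.27 to 9.24, 3.95 to 6.5 and 7.91 to 16.1 CPM. The basal keratin genes Krt5 and Krt14 were at 0.540 to 1.36 and 0.330 to 0.785 CPM. Summed over 7 basal and myoepithelial markers the level was 30.3, 59.1, 19.2 and 34.9 CPM, with Acta2 alone at 18.7, 46.6, 9.99 and 21.1 CPM.

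None of the 7 genes passed the test for AXL KO against WT. In simulated counts, drawn with the same dispersion for all genes, edgeR called only 5 of 67 genes with a 2-fold change. In the real counts edgeR did not call Axl either, which was 10.05-fold lower in AXL KO (edgeR adjusted p = 0.9997). A missing call therefore does not show an unchanged level. Erbb2 was 1.69-fold higher in AXL KO, with close values within each group. Egfr was 1.32-fold higher and Errfi1 1.28-fold lower. Each of these was without overlap between the groups, as were 14.7% of all genes upward and 14.5% downward. Such separation alone therefore says little about a member. Erbb3, Erbb4, Grb7 and Lrig1 overlapped between the groups. By edgeR's quasi-likelihood test with Benjamini-Hochberg adjustment at 0.05, 0 of the 7 members were called, as were 0% of all genes tested. At an unadjusted p under 0.05 edgeR counted 0 members against 2.19% of all genes. DESeq2 called 0 members against 0.112% of all genes, and 1 member, Erbb2, had an unadjusted p under 0.05 there, as did 502 of all 14330 genes. Limma-voom called 0 members and 0 of all 14330 genes. At an unadjusted p under 0.05 limma-voom counted 0 members, with Erbb2 at 0.052, and 285 of all 14330 genes. The AXL KO values both exceeded the WT values for 2 members (14.7% of all genes) and were both lower for 1 member (14.5% of all genes).

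**Figure D1:**
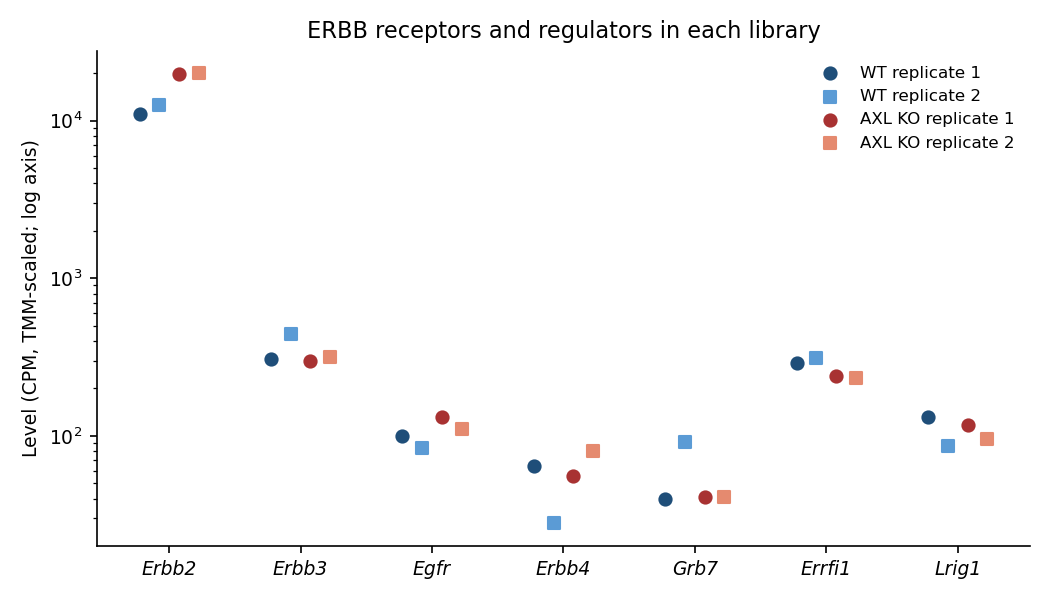
Level of each gene in CPM on a log axis, 1 point per library, with WT in blue, AXL KO in red, circles for replicate 1 and squares for replicate 2. Erbb2 lies far above the other genes at 10967.5 to 19975.1 CPM, and its AXL KO points lie above its WT points. WT replicate 2 is the highest library for Grb7 and the lowest for Erbb4.

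Erbb2 (ENSMUSG00000062312), the receptor that serves as the oncogene in this model, lies on the plus strand of chromosome 11 from 98412470 to 98437716 in GRCm38. The upstream bases of its start in RefSeq (GRCm38.p6, plus strand, chr11:98412234-98412483) are shown with those of Egfr (chr11:16751953-16752202, plus strand), since these were the members with higher values in each AXL KO library than in any WT library. They are the promoters of the mouse genes, and not the viral promoter that drives the transgene. Capitals mark matches, on either strand, to a GC box (GGGCGG), an AP-2 motif (GCCNNNGGC), a TATA box (TATAAA) or a CCAAT box (CCAAT).
Erbb2: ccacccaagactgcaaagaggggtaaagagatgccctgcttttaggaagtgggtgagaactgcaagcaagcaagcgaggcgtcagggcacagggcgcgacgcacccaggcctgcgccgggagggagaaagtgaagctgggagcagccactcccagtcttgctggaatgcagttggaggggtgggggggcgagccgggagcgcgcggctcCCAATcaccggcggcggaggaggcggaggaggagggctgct
Egfr: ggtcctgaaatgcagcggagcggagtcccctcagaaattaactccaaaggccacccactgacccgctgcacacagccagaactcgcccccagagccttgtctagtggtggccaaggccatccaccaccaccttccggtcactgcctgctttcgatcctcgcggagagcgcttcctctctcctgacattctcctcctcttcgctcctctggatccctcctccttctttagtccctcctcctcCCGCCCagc

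In these 250 bases Erbb2 held 1 CCAAT box, a motif found in 33.8% of all 32851 RefSeq windows of that length, and 66.0% of its bases were G or C. Egfr held 1 GC box, a motif found in 32.7% of all windows. AP-2 motifs were in 13.7% and TATA boxes in 12.4% of all windows and in neither of these. The RefSeq table matched 5 of the 7 members. Of the other matched members, Lrig1 had 2 GC boxes, 1 AP-2 motif and 1 CCAAT box in its window, and Erbb4 had 0 matches. Errfi1 had 2 windows, 1 with 3 GC boxes, 1 TATA box and 1 CCAAT box and the other with 0 matches.

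Erbb2 counts were 234552 and 240551 in the WT libraries, against 370267 and 666034 in the AXL KO libraries. That was 1.102% and 1.271% of all gene counts in WT and 1.932% and 2.01% in AXL KO, with 95% exact binomial intervals of 1.098 to 1.107, 1.266 to 1.276, 1.926 to 1.939 and 2.005 to 2.015 that cover counting error only. By count it ranked 3 in both WT libraries and 1 and 2 in the AXL KO libraries. No other member came near such a share of a library, Erbb3 being the next among the receptors at 0.0292% to 0.0444% of counts.

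Scaled by TMM, the Erbb2 level of the WT libraries was 10967.5 and 12594.3 CPM, and that of the AXL KO libraries 19776.3 and 19975.1 CPM. The AXL KO libraries agreed within 1.01-fold and the WT libraries within 1.15-fold, and the lower AXL KO library was 1.57-fold above the higher WT library. The WT mean was 11780.9 ± 1150.4 CPM and the AXL KO mean 19875.7 ± 140.6 CPM (SD over 2 libraries). On the log2 scale edgeR put the difference at 0.75 ± 1.05 (SE, adjusted p = 0.9997). DESeq2 gave 0.75 ± 0.22 (SE) with an adjusted p of 0.295, and limma-voom gave 0.76 ± 0.30 (SE).

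The tests agreed on the size of the Erbb2 difference and gave it very different errors. The variance that edgeR's fit took over from genes of similar abundance was 9.10 for Erbb2 and 0.209 to 0.277 for the other 6 members. By mean abundance Erbb2 ranked 2 among the tested genes. Under the older setting of the same fit that variance was 1.81 and the standard error 0.47. With no filter on low counts the standard error was 0.40. With each library left out in turn the log2 difference ran from 0.67 to 0.85, and it was 0.73 within the shared prefix.

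**Figure D2:**
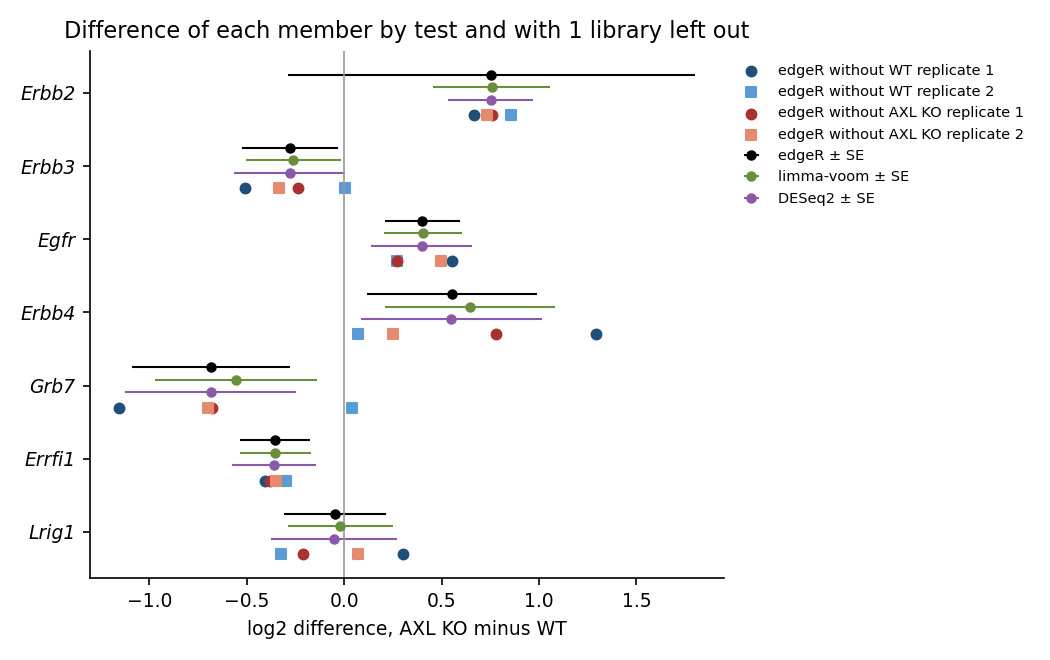
log2 difference of AXL KO minus WT for each gene by edgeR, limma-voom and DESeq2 with standard errors as bars, and by edgeR with each library left out as coloured points without bars. The Erbb2 points lie between 0.67 and 0.85 whichever library is left out, while the points of Grb7, Erbb3 and Lrig1 lie on both sides of 0.

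Of 10 luminal markers 2 had a positive log2 difference, and their median was −0.31. Summed over the 10 markers, their level was 3830.1, 4303.8, 3620.9 and 3576.8 CPM over the 4 libraries. The ratio of Erbb2 to that sum was 2.86 and 2.93 in WT and 5.46 and 5.58 in AXL KO. Of the 10 markers 0 were higher in each AXL KO library than in any WT library (14.7% of all genes), and 4 were lower in each (14.5% of all genes).

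**Figure D3:**
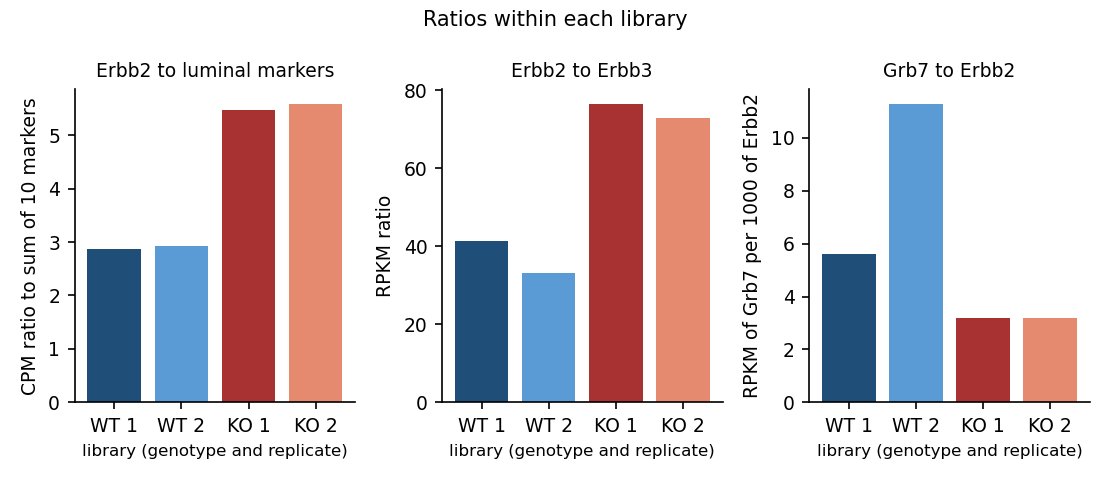
Ratios within each library, as bars from 0 for the WT and AXL KO replicates: Erbb2 to the sum of 10 luminal markers (CPM), Erbb2 to Erbb3 (RPKM) and Grb7 per 1000 of Erbb2 (RPKM). The ratios to luminal markers and to Erbb3 are higher in both AXL KO libraries, and Grb7 per 1000 of Erbb2 is 3.199 and 3.18 in AXL KO against 5.62 and 11.3 in WT. Each ratio contains the Erbb2 level, so they are not separate results.

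Grb7 (ENSMUSG00000019312; chromosome 11, plus strand, 98446394 to 98455373) encodes an SH2 adaptor that binds ERBB2 and starts 33.9 kb downstream of the Erbb2 start. It is amplified together with ERBB2 in many human breast cancers. Its WT libraries stood at 39.8 and 91.8 CPM, and its AXL KO libraries at 40.9 and 41.0 CPM. WT replicate 2 was 2.31-fold above WT replicate 1, and the other 3 libraries lay close together. The log2 difference of −0.68 ± 0.41 (SE; edgeR adjusted p = 0.9997) became 0.04 without WT replicate 2 and −1.16 without WT replicate 1.

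Per length, Grb7 stood at 8.45 ± 4.01 per 1000 of Erbb2 in WT and at 3.19 ± 0.0149 in AXL KO (SD, n = 2 each). The groups did not overlap in this ratio. Grb7 alone overlapped between the groups and Erbb2 did not, so the ratio in part restates the Erbb2 difference. With 2 libraries in each group an exact permutation test cannot give a p below 0.3333, so no test is given.

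The neighbours of Erbb2 on chromosome 11 mostly had smaller differences. Of 19 of them, Grb7 included, with starts at −329.9 kb to 355.5 kb from that of Erbb2, 13 were tested and 0 had an unadjusted p under 0.05 by edgeR, against 2.19% of all genes. Their median log2 difference was −0.05, beside −0.0019 for all genes tested. Mien1, which encodes a migration and invasion enhancer, ends 9 bases inside the Erbb2 exons on the other strand and stood at 97.3, 92.1, 119.5 and 102.4 CPM over the 4 libraries (log2 difference 0.23 ± 0.17, SE). The AXL KO values both exceeded the WT values for Mien1, as for 2 of the 13 tested neighbours with Mien1 included (14.7% of all genes). Without the strand setting, reads in the bases that Mien1 and Erbb2 share cannot be assigned.

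Stard3, the cholesterol transport gene that is also part of the human ERBB2 amplicon, was at 41.8, 35.2, 35.9 and 37.0 CPM over the 4 libraries. Pgap3, which acts in GPI anchor remodelling, was at 33.5, 27.6, 31.9 and 29.9 CPM in the same order. Fbxl20, an F-box protein gene, had a log2 difference of −0.20 ± 0.23 (SE). Ikzf3, a lymphoid transcription factor gene, was at 3.32, 0.262, 2.51 and 4.89 CPM, so its log2 difference of 1.04 ± 1.01 (SE) came with a low WT replicate 2. The summed lymphocyte markers were also lowest there, at 18.3 CPM against 32.7 to 44.8 CPM in the other libraries, and their part in the Ikzf3 value was not tested.

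**Figure D4:**
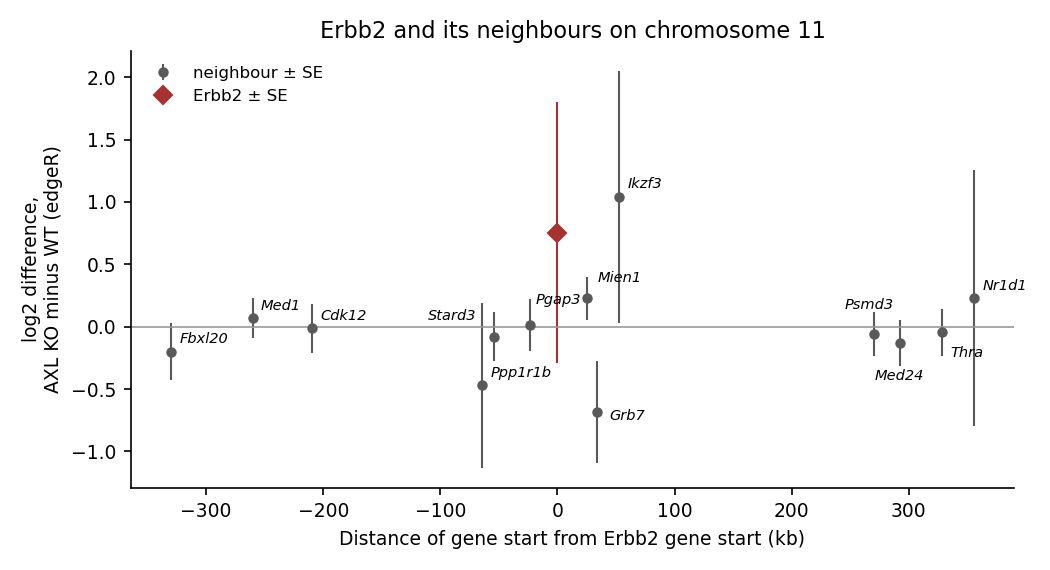
log2 difference of AXL KO minus WT by edgeR, with standard errors as bars, against the distance of each gene's start from the Erbb2 start in kb. Erbb2 is the red diamond at 0.75, most neighbours lie close to 0, and Grb7 (−0.68) and Ikzf3 (1.04) lie farther out.

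Erbb3 (ENSMUSG00000018166; chromosome 10, minus strand, 128567523 to 128589652), the kinase-impaired partner of ERBB2, stood at 306, 440, 298 and 317 CPM over the 4 libraries. WT replicate 2 was the high library and the other 3 lay within a narrow range. The log2 difference was −0.28 ± 0.24 (SE; edgeR adjusted p = 0.9997), with values of 0.0053 when WT replicate 2 was left out and −0.51 when WT replicate 1 was. The ratio of Erbb2 to Erbb3, in CPM per kilobase of exon (RPKM), was 41.4 and 33.1 in WT and 76.5 and 72.8 in AXL KO.

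Egfr (ENSMUSG00000020122; chromosome 11, plus strand, 16752203 to 16918158), the receptor of EGF, TGF-alpha and amphiregulin, had 101 and 83.3 CPM in its WT libraries, against 132 and 111 CPM in its AXL KO libraries. Both AXL KO values were above both WT values, as for 14.7% of all genes. The gap between the nearest libraries was 1.11-fold, less than the 1.21-fold and 1.18-fold between libraries of 1 group. The log2 difference was 0.40 ± 0.19 (SE; edgeR adjusted p = 0.9997). It ran from 0.27 to 0.55 with each library left out in turn. Fibroblasts and adipocytes express Egfr too. Summed fibroblast markers were at 782, 1082.5, 387 and 1054.0 CPM and adipocyte markers at 66.7, 141, 98.2 and 115 CPM over the 4 libraries, and their part in the Egfr values was not tested.

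Erbb4 (ENSMUSG00000062209; chromosome 1, minus strand, 68032186 to 69108059), a neuregulin receptor that acts with STAT5 in the lactating gland, stood at 64.8, 28.0, 56.0 and 80.1 CPM over the 4 libraries. The groups overlapped, and WT replicate 2 was the low library. The log2 difference of 0.55 ± 0.44 (SE; edgeR adjusted p = 0.9997) was 0.07 without WT replicate 2 and 1.29 without WT replicate 1. Within the shared prefix it was 0.25.

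Errfi1 (ENSMUSG00000028967; chromosome 4, plus strand, 150853919 to 150868892), the feedback inhibitor that ERBB signalling itself induces, had 289 and 314 CPM in its WT libraries, against 239 and 232 CPM in its AXL KO libraries. Both AXL KO values were below both WT values, as for 14.5% of all genes. The gap was 1.21-fold between the nearest libraries, with 1.09-fold and 1.03-fold within the groups. The log2 difference was −0.36 ± 0.18 (SE; edgeR adjusted p = 0.9997). It ran from −0.41 to −0.30 with each library left out in turn.

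Lrig1 (ENSMUSG00000030029; chromosome 6, minus strand, 94604529 to 94700158), the membrane inhibitor, stood at 132, 86.4, 117 and 94.95 CPM over the 4 libraries. The AXL KO libraries lay between the WT libraries. The log2 difference was −0.05 ± 0.26 (SE; edgeR adjusted p = 0.9997), and it ran from −0.33 to 0.30 with each library left out in turn. Lrig1 shares 144 exon bases with Slc25a26 on the opposite strand, whose reads there cannot be assigned without the strand setting.

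Levels can be compared between genes only per length, as RPKM. Erbb2 stood at 2105.1 to 3834.0 RPKM, Errfi1 at 64.7 to 87.6, Erbb3 at 49.6 to 73.1, Lrig1 at 15.5 to 23.7, Grb7 at 11.8 to 27.3, Egfr at 7.36 to 11.6 and Erbb4 at 2.26 to 6.49. The ranges of Errfi1 and Erbb3 overlapped, though Erbb3 was at 0.630, 0.835, 0.742 and 0.814 of Errfi1 within the 4 libraries, and those of Lrig1 and Grb7 overlapped as well. Egfr was 1.52-fold to 3.25-fold above Erbb4 in every library. The length used for Erbb2 is that of the mouse gene, which the transgene need not share.

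Erbb2 made up 96.8% ± 0.224 of the summed RPKM of the 4 receptors in WT and 98.3% ± 0.0450 in AXL KO (SD, n = 2 each). Erbb3 held 2.63% ± 0.413 in WT and 1.32% ± 0.0453 in AXL KO, Egfr 0.352% ± 0.0815 and 0.276% ± 0.0348, and Erbb4 0.166% ± 0.107 and 0.142% ± 0.0345. The Erbb3 share was lower in both AXL KO libraries, where the Erbb2 level was higher. Nearly all receptor transcript in these tumours was thus counted under Erbb2, and the remaining share was mostly Erbb3.

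For each receptor the 3 genes with the most similar profile were sought among 9504 named genes with a mean of at least 10 CPM, by the root mean square distance of centred log2 CPM over the 4 libraries. For Erbb2 these were Katnal1 at a distance of 0.0416, Pop4 at 0.0647 and Mmp16 at 0.107. Katnal1, which encodes a katanin-like microtubule-severing protein, stood at 17.02, 18.1, 30.2 and 30.2 CPM over the 4 libraries. Within 0.1 of the Erbb2 profile lay 2 genes, against 7 for Erbb4, 240 for Egfr and 444 for Erbb3. The distance was not scaled by how much a profile varies, so these counts reflect its spread as well as its shape. Nearest to Erbb4 were Tnfrsf19, Sdc3 and Fbxw17, nearest to Egfr Iscu, Gnpda2 and Gtpbp8, and nearest to Erbb3 Ccnt1, Chst12 and Mmadhc. With 4 libraries such likeness is a description of these samples.

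Of 71 other ERBB pathway genes in 6 lists, 68 were tested, edgeR called 0, DESeq2 called 0, and 3 had an unadjusted p under 0.05 by edgeR, where 2.19% of all genes did. These 3 were Rhbdf2, Vav2 and Esr1. The AXL KO values both exceeded the WT values for 7 of the 68 (14.7% of all genes) and were both lower for 19 (14.5% of all genes).

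Among 11 ligand genes 8 were tested, with a median log2 difference of −0.60 that became −0.14 without WT replicate 2. The AXL KO values were both lower for 4 of the 8, the 4 with the smallest p (14.5% of all genes), and both higher for 3 (14.7% of all genes). Nrg1, which encodes the ERBB3 and ERBB4 ligand neuregulin 1, stood at 1.92, 4.03, 1.496 and 1.17 CPM over the 4 libraries. Nrg2 stood at 38.4, 62.5, 31.4 and 32.1 CPM, and the EGFR ligand gene Hbegf at 2.53, 14.2, 1.602 and 2.49 CPM. Epgn, the epigen gene, was under 1 CPM in every library. The 3 with higher AXL KO values were Egf, Btc and Nrg4. Egf stood at 203.5, 57.3, 203.5 and 204.3 CPM over the 4 libraries, so WT replicate 1 lay level with AXL KO. Summed over the 11 ligand genes the level was 297.2, 219.7, 286.5 and 300.4 CPM, which was not lower in AXL KO. WT replicate 2 was the highest library for Nrg1, Nrg2 and Hbegf, and the lowest for Egf and Btc.

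Among 7 genes of ligand release the median was 0.03. The iRhom genes Rhbdf2 and Rhbdf1, whose products carry the sheddase ADAM17 to the cell surface, had log2 differences of −0.46 ± 0.18 and −0.39 ± 0.16 (SE). Rhbdf2 stood at 60.2, 70.1, 46.1 and 48.3 CPM over the 4 libraries, with an edgeR adjusted p of 0.9997. Adam17 itself was at 91.1, 92.4, 99.3 and 91.5 CPM, and Adam12 at 40.9, 57.4, 84.1 and 54.0 CPM.

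Among 21 adaptors and effectors near the receptor the median was −0.06, with 0 of 21 higher (14.7% of all genes) and 6 lower (14.5% of all genes) in each AXL KO library than in any WT library. Vav2, a guanine nucleotide exchange factor, stood at 52.6, 74.9, 44.7 and 38.0 CPM over the 4 libraries (log2 difference −0.62 ± 0.24, SE; edgeR adjusted p = 0.9997). Pik3r2, a regulatory subunit of PI3 kinase, had a log2 difference of −0.37 ± 0.18 (SE), the kinase gene Src −0.36 ± 0.22 and the docking protein gene Gab1 −0.25 ± 0.16, none of them past the test.

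Among 16 genes of receptor turnover the median was −0.11, and the 4 with the smallest p were Stam2, Stam, Sh3kbp1 and Hgs, which act in endosomal sorting and endocytosis, at −0.26, −0.43, −0.71 and −0.17. Among 8 genes listed as other inhibitors the median was 0.11, and their action on ERBB receptors in these tumours was not tested. The phosphatase genes Ptpn1 and Ptpn12 were at −0.40 ± 0.18 and −0.36 ± 0.17 (SE), Socs5 at 0.30 and the Lrig1 relative Lrig2 at 0.20. Among 8 transcription factor genes the median was 0.10. Of these, Esr1, the oestrogen receptor alpha gene, stood at 6.87, 7.02, 18.3 and 11.5 CPM over the 4 libraries. Its log2 difference was 1.10 ± 0.33 (SE; edgeR adjusted p = 0.9997). Tfap2c, which encodes an AP-2 factor known to activate ERBB2, stood at 313, 265, 369 and 292 CPM over the 4 libraries and overlapped between the groups. Foxo1 and Foxa1 overlapped as well, at log2 differences of 0.26 and 0.54.

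**Figure D5:**
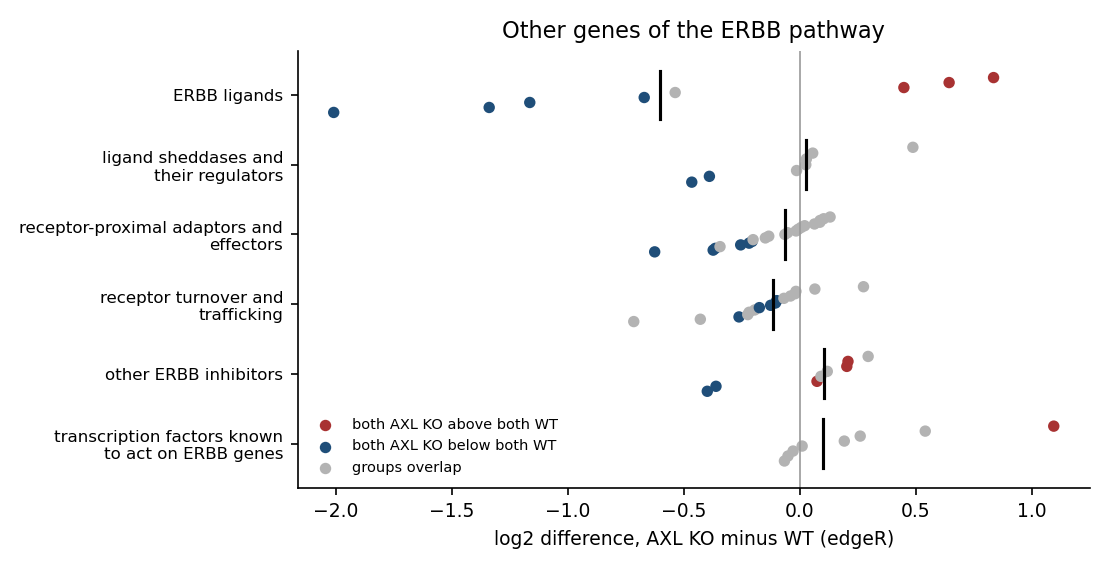
log2 difference of AXL KO minus WT by edgeR for each tested gene of 6 ERBB pathway lists, with the list median as a black bar. In red points (7 genes) the AXL KO values both exceed the WT values, in blue points (19 genes) they are both lower, and in grey points the groups overlap.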

How the data were processed

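Tumour RNA was measured by sequencing in 4 libraries, and groups and replicate numbers were read from the titles. The deposited files hold raw read counts per Ensembl gene. Per the submitters' processing notes, which give no roles, the build was GRCm38 and the tools DESeq2 1.4.5, HTSeq 0.5.3, TopHat2 2.0.10 and CASAVA 1.8. For annotation release and strand setting nothing is given in the sources used here. Each file ended in 5 summary lines, which were left out. Of all lines summed, non-unique alignments took 23.2% to 28.1%, reads outside genes 5.27% to 8.11% and ambiguous reads 0.635% to 1.85%.

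Symbols, positions and exon lengths came from GENCODE M21 (GRCm38), which matched 36345 of 38293 identifiers. Genes were kept by filterByExpr (14330 of 20587 with a count), scaled by TMM and tested with edgeR 4.0.16 (glmQLFit, glmQLFTest; R 4.3.3) without covariates. Standard errors are the log2 difference divided by the root of F. CPM and RPKM used TMM-scaled totals and the union of exons. The fit, DESeq2 1.42.0 and limma-voom (limma 3.58.1) were tested on simulated counts, drawn with the same dispersion for all genes. In that order they called 5, 7 and 5 of 67 genes with a 2-fold change. With a 4-fold change they called 47, 48 and 46 of 67. Since edgeR did not call Axl in the real counts at a 10.05-fold difference, the simulated shares may overstate what it finds there.

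Alternatives were DESeq2 size factors, library totals, other low-count filters, DESeq2, limma-voom, the legacy fit, a replicate block, each library left out and the longest transcript as length. Named were the members, Axl, up to 4 genes with the smallest p in each list, and the 3 nearest profiles to each receptor (pseudocount 0.5 CPM, mean of at least 10 CPM, no Gm-numbered or Rik names). The members and lists were chosen with earlier results of these data known. Stard3, Pgap3, the keratins, Epcam, Muc1, Elf3, Acta2, Egf, Btc, Nrg4 and the ratios to luminal markers were chosen after values were seen. The luminal markers Cdh1, Cldn3, Spint1 and Cldn7 were likewise named after values were seen.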

Additional observations from a re-analysis of the deposited data

How the results depend on the processing

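Of the 7 members 0 were called under every alternative run, adjusted over all genes. The count over all genes was 0 except for DESeq2, which called 16, and ran from 0 to 246 with 1 library left out, the highest being without WT replicate 1, where 5 members and 3005 of all 14849 genes tested had an unadjusted p under 0.05. With 1 library left out the log2 differences ran from 0.67 to 0.85 for Erbb2, −0.51 to 0.0053 for Erbb3, 0.27 to 0.55 for Egfr, 0.07 to 1.29 for Erbb4, −1.16 to 0.04 for Grb7, −0.41 to −0.30 for Errfi1 and −0.33 to 0.30 for Lrig1. The sign turned for Erbb3 and Grb7 (0.0374) without WT replicate 2, and for Lrig1 without WT replicate 1 (0.30) and without AXL KO replicate 2 (0.07). The cause was not tested. Under the other alternatives each member kept its sign. With the longest transcript as length, Grb7 per 1000 of Erbb2 was 11.4 in WT and 4.31 in AXL KO. Labels do not say that a replicate number pairs samples, and same-numbered libraries deviated with a correlation of −0.046 over 14330 genes. With the replicate block 0 genes and 0 members were called, and Erbb2 was at 0.76 ± 1.395 (SE). Each member had at least 534 counts in every library.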
